A study of Homo sapiens with 4 samples.

Results

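Tight junctions are the seals that close the space between neighbouring epithelial cells, and 35 genes that encode their parts were followed here in T24 cells, a line derived from a human bladder carcinoma. The members were chosen by name: 36 symbols of claudins and other tight junction components were looked up in a table of 60623 genes, and each was found, with PALS1 and MPP5 being 2 names of 1 gene, listed as MPP5. RNA-seq was performed on 2 libraries of control T24 cells and 2 libraries of T24 cells overexpressing CBX7 (CBX7 cells), CBX7 being a subunit of Polycomb repressive complex 1, grown in RPMI with 10% FCS. CBX7 was expressed from a pCDH-3xFLAG plasmid. What vector the control cells carry, how many clones each line represents, and whether the libraries of a group come from separate cultures are not stated in the sources used here, so p-values measure only the spread between these libraries, which may be technical. The comparison addresses which junction components T24 cells, which lack CDH1 message, still transcribe, and whether CBX7 moves them.

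Claudins are membrane proteins that form the strands of the junction and decide which ions pass, while occludin, tricellulin and MARVELD3 (the MARVEL proteins) shape and stabilise these strands. Junctional adhesion molecules sit beside them in the membrane. Inside the cell, ZO proteins and cingulins tie the strands to actin, and the PALS1-PATJ complex and the MAGI scaffolds link them to the machinery of cell polarity. In epithelia these genes are usually active together with CDH1, the gene of E-cadherin, and several are repressed by the transcription factors SNAI1, SNAI2, ZEB1 and ZEB2, which bind an E-box.

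The starts of 3 claudins, both of the abundant ones and 1 that is nearly silent, are shown first. The sequences are from RefSeq on GRCh38.p14, 250 bases before to 50 bases after the start, on the strand of the gene. The capitals mark the E-box letters CAGGTG and their reverse complement CACCTG, which cannot overlap each other. CLDN11 and CLDN1 had the highest levels of the members, and CLDN7, a claudin of barrier-forming epithelia, had at most 9 estimated counts in any library. They were chosen after their levels were seen, and CLDN7 is shown at the start with the most matches of the 2 listed. The positions are chr3:170418618-170418917 on the plus strand for CLDN11, chr3:190322397-190322696 on the minus strand for CLDN1 and chr17:7262429-7262728 on the minus strand for CLDN7.
CLDN11: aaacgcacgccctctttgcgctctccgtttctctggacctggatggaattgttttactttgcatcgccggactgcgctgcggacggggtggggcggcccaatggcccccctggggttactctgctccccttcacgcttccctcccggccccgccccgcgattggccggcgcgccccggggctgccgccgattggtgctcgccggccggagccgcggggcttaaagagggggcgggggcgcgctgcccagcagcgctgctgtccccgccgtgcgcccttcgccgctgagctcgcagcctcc
CLDN1: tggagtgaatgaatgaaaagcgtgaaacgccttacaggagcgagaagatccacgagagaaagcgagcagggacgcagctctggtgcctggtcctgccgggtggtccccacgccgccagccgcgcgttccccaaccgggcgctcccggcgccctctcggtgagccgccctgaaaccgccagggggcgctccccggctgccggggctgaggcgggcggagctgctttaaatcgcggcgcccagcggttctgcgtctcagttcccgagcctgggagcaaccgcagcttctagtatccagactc
CLDN7: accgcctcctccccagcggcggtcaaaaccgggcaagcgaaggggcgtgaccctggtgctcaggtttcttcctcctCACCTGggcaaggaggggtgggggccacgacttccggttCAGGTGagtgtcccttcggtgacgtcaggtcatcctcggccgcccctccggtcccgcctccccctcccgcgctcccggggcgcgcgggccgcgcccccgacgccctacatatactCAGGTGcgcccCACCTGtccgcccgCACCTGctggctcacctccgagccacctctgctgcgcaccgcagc
The CLDN11 and CLDN1 windows shown held 0 matches, and the CLDN7 window, picked for having the most, held 5. The other listed start of CLDN7 held 0 and so did the other start of CLDN11. Among the remaining members, PATJ held 3, the starts of OCLN held 1 and 2, and CLDN3 and CLDN6 held 1, whereas CLDN2, CLDN10 and CLDN20 held 0, so that both expressed and nearly silent genes were found with and without the letters. Of 35116 such windows in the RefSeq table, 20.6% held at least 1 match. Of the 35 members, 24 had a window in the table, with 37 starts in all, of which 12 (32.4%) held the motif. The 3 windows shown had 36 (CLDN11), 31 (CLDN1) and 30 (CLDN7) CpG dinucleotides, against a median of 14 over all windows, while the other starts of CLDN11 and CLDN7 had 3 and 10. No binding was measured in these data, so a match is a description of the letters.

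T24 cells carried a selective set of tight junction transcripts dominated by 2 claudins. Of the 35 members, 14 had a mean of at least 1 TPM over the 4 libraries (a level scaled by gene length and depth, as deposited by the authors), and 10 had at most 3 estimated counts in every library. CLDN11, known from myelin and the testis, was the highest, with 335.1 and 349.7 TPM in control cells and 291.5 and 354.6 TPM in CBX7 cells, and ranked 382 among 26229 genes with a TPM above 0. CLDN1, the claudin of the skin barrier and many epithelia, followed with 143.8 and 155.7 TPM in control cells and 107.3 and 164.3 TPM in CBX7 cells. In bulk libraries, fewer cells with a transcript and less of it per cell cannot be told apart. By TPM, CBX7 replicate 1 was the lowest library and CBX7 replicate 2 the highest in both genes, so the groups overlapped. Together they made up 93.8% and 93.2% of all claudin TPM in control cells and 94.6% and 93.6% in CBX7 cells. The ratio of CLDN11 to CLDN1 TPM was 2.33 and 2.25 in control cells, against 2.72 and 2.16 in CBX7 cells, again with CBX7 replicate 1 apart and CBX7 replicate 2 below both controls.

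Below them came a single further claudin of moderate level. CLDN12, an atypical claudin expressed in many tissues, had 24.3 and 29.3 TPM in control cells and 16.2 and 27.9 TPM in CBX7 cells. CLDN15, a cation-pore claudin of the intestine, lay between 2.34 and 2.76 TPM in the 4 libraries, and CLDN4, a claudin of tight epithelia such as the urothelium, between 1.45 and 1.82 TPM. CLDN23 lay between 1.28 and 1.81 TPM. The spread of CLDN4 and CLDN23 overlapped, so their order is not settled by these libraries. The barrier claudins CLDN3 and CLDN7 were nearly silent, with at most 5 and 9 estimated counts in any library. CLDN9, CLDN16 and CLDN18 also stayed at or under 9 counts, and CLDN2, CLDN5, CLDN6, CLDN10, CLDN14, CLDN19 and CLDN20 at or under 3. CLDN8 had 0 counts in all 4 libraries. With 0 counts seen, a level of up to 3 counts is still allowed, which is 0.119 to 0.144 CPM (counts scaled to the normalized size of the library) depending on the library and covers counting error only.

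Claudin genes that lie next to each other differed in level in 2 of 3 pairs. CLDN1 (chromosome 3, 190305701 to 190322475, minus strand, in GENCODE release 29 on GRCh38) and CLDN16, a kidney claudin, start back to back with 65 bases between them in that annotation. In RefSeq the listed starts of CLDN16 lie elsewhere, in windows at 190290111-190290410 and 190387913-190388212 of chromosome 3. CLDN1 had between 7558 and 8606 estimated counts in a library and CLDN16 between 2 and 9. CLDN3 and CLDN4, which lie 29.3 kb apart on chromosome 7, had mean levels of 0.183 and 1.68 TPM. CLDN9 and CLDN6, 206 bases apart on chromosome 16, were both near 0, at 0.125 and 0.095 TPM.

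**Figure D1:**
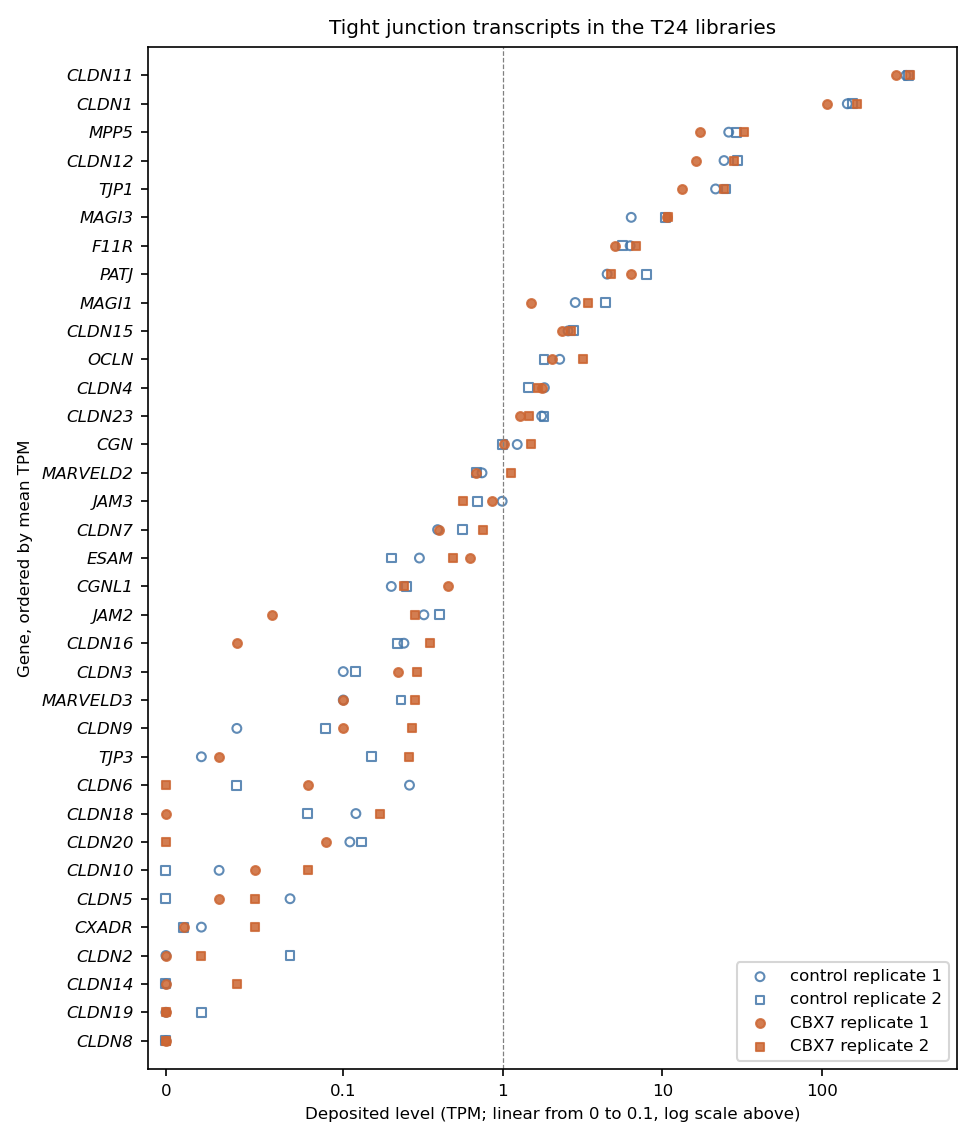
Deposited level in TPM of each of the 35 tight junction genes, on an axis that is linear from 0 to 0.1 and logarithmic above, with open symbols for the 2 control libraries and filled symbols for the 2 CBX7 libraries. The dashed line marks 1 TPM, which 14 genes exceeded on average, and CLDN11 and CLDN1 stand apart from all others in every library.

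Of the cytoplasmic plaque and scaffold genes, MPP5 and TJP1 led with means of 26.1 and 21.0 TPM, beside 24.4 TPM for CLDN12. TJP3, CGNL1 and CGN were low. MPP5 (PALS1), the scaffold that joins Crumbs to PATJ, had 26 and 29.04 TPM in control cells and 17.1 and 32.3 TPM in CBX7 cells. TJP1, which encodes ZO-1, had 21.5 and 25.0 TPM in control cells and 13.2 and 24.3 TPM in CBX7 cells. For both genes CBX7 replicate 1 was the lowest library, while CBX7 replicate 2 lay within or above the range of the controls. By normalized counts CBX7 replicate 1 was also the lowest, but MPP5 had 75.0 CPM there beside 85.2 CPM in control replicate 1. TJP3 (ZO-3), an epithelial ZO protein, had 1 or 2 counts in each library. CGN, the gene of cingulin, lay between 1 and 1.5 TPM, and its paralog CGNL1 between 0.20 and 0.45 TPM. The scaffolds MAGI3, PATJ and MAGI1 had means of 9.60, 5.88 and 3.03 TPM. Computed from the counts and the deposited length instead (RPKM), their levels overlapped, at 2.13 to 3.16 for MAGI3, 1.86 to 3.17 for PATJ and 1.78 to 3.02 for MAGI1.

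Membrane proteins other than claudins were low. OCLN (occludin) had 2.27 and 1.81 TPM in control cells and 2.03 and 3.18 TPM in CBX7 cells. MARVELD2 (tricellulin), which seals the corners where 3 cells meet, had 0.74 and 0.68 TPM in control cells and 0.68 and 1.12 TPM in CBX7 cells. MARVELD3 had between 3.89 and 5.66 estimated counts in a library. Among the immunoglobulin-like adhesion molecules, F11R (JAM-A), the form found in epithelia, led with a mean of 5.94 TPM. JAM3 lay between 0.56 and 0.99 TPM, while ESAM and JAM2, best known from endothelium, had means of 0.402 and 0.265 TPM. CXADR, the coxsackie and adenovirus receptor that many epithelia display at the junction, had only 1 or 2 counts in each library.

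No tight junction gene passed the test between CBX7-overexpressing and control cells. Of the 35 members, 19 had enough counts for edgeR's quasi-likelihood test with TMM normalization and Benjamini-Hochberg adjustment over 14862 genes, and 0 had an adjusted p under 0.05, where 0.0202% of all genes tested did. At an unadjusted p under 0.05 there were also 0 members, against 4.74% of all genes tested. DESeq2's Wald test called 0 members at an adjusted p under 0.05, against 0.451% of all genes tested. The smallest adjusted p among the members was 0.951 (edgeR). The log2 fold changes were positive in 11 members and negative in 8, with a median of 0.022, beside 0.0017 over all genes tested. Leaving out CBX7 replicate 2, with the lone CBX7 library assumed to vary like the controls, 35.5% of all genes tested passed the adjusted threshold, and with them 4 members, TJP1, CLDN12, MAGI1 and PATJ, all lower with CBX7. Leaving out CBX7 replicate 1 instead, 2.59% of all genes tested passed and 0 members did. For a single gene, an exact two-sided permutation test of 2 against 2 libraries cannot give a p under 0.333.

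For the claudins that carry most of the message, the intervals were narrow. Normalized counts of CLDN11 were 501.5 and 500.4 CPM in control cells and 516.0 and 501.1 CPM in CBX7 cells, which put all 4 libraries close together, with CBX7 replicate 1 the highest and not, as by TPM, the lowest. Its log2 fold change was 0.02 (standard error 0.12), a fold of 1.02 with a 95% interval from 0.826 to 1.25. CLDN1 had 359.5 and 369.7 CPM in control cells and 313.0 and 385.2 CPM in CBX7 cells, with overlapping groups and a fold of 0.957 (95% interval 0.740 to 1.24). CLDN12 had 59.3 and 61.7 CPM in control cells and 45.5 and 56.4 CPM in CBX7 cells. Both CBX7 libraries lay below both controls, but its log2 fold change of -0.25 (standard error 0.16) had an interval from -0.64 to 0.14 and an unadjusted p of 0.169 (edgeR). CLDN4, at 3.35 and 2.24 CPM in control cells and 3.31 and 2.33 CPM in CBX7 cells, overlapped fully, with an interval from -0.80 to 0.82 on the log2 scale. CLDN15 had 2.89 and 3.10 CPM in control cells and 3.02 and 2.95 CPM in CBX7 cells, again overlapping, with a log2 fold change of -0.0017 (standard error 0.23). CLDN23 had 2.64 and 2.62 CPM in control cells and 2.28 and 2.06 CPM in CBX7 cells. Both CBX7 libraries were lower, and its log2 fold change of -0.28 had a standard error of 0.25.

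Occludin and tricellulin had higher normalized counts in both CBX7 libraries without passing the test. Of all genes tested, 15.4% were higher in this way, and by TPM the groups of both genes overlapped. OCLN had 8.38 and 6.29 CPM in control cells and 8.41 and 9.22 CPM in CBX7 cells. The groups did not overlap, though control replicate 1 and CBX7 replicate 1 were almost level, and the log2 fold change was 0.26 (standard error 0.20, 95% interval -0.24 to 0.77). MARVELD2 had 2.43 and 2.10 CPM in control cells and 2.65 and 3.22 CPM in CBX7 cells, a log2 fold change of 0.37 (standard error 0.26, 95% interval -0.28 to 1.02). The counts of OCLN were not whole in any of the 4 libraries, and whether its near-copy OCLNP1 shares reads with it was not tested.

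Of the tested adhesion molecules, ESAM and JAM2 had the largest differences and the fewest counts. ESAM had 9 and 5 estimated counts in control cells and 15 and 13 in CBX7 cells, so that both CBX7 libraries lay above both controls. Its log2 fold change was 0.94 with a standard error of 0.46 (unadjusted p 0.0911, adjusted p 0.951, edgeR). JAM2 had 14 and 14 counts in control cells and 5 and 12 in CBX7 cells, a log2 fold change of -0.76 with a 95% interval from -2.14 to 0.62. It was -1.57 without CBX7 replicate 2 and -0.21 without CBX7 replicate 1. Of 9 endothelial markers, 5 had at most 3 counts in every library (KDR, TEK, VWF, EMCN and ERG), and the summed level of all 9 was 1.48 and 2.05 TPM in control cells and 1.82 and 1.96 TPM in CBX7 cells. The highest of the 9 were ROBO4, TIE1 and CDH5, the 3 that were tested, with means of 1.08, 0.458 and 0.192 TPM. ROBO4 and TIE1 had overlapping groups and log2 fold changes of 0.14 (standard error 0.31) and -0.31 (standard error 0.49). The defining marker CDH5 had 13 and 12 counts in control cells and 3 and 7 in CBX7 cells, a log2 fold change of -1.35 (standard error 0.57, adjusted p 0.951, edgeR), and PECAM1 at most 4 counts. T24 is a cultured line, and whether any cells other than T24 add to the values of ESAM and JAM2 was not tested. F11R had 20.6 and 18.6 CPM in control cells and 20.2 and 22.5 CPM in CBX7 cells, with overlapping groups and a log2 fold change of 0.12 (standard error 0.15). JAM3 had 2.30 and 1.86 CPM in control cells and 2.77 and 1.48 CPM in CBX7 cells, the highest and the lowest value both being those of the CBX7 group, and a log2 fold change of 0.03 (standard error 0.38). Of the 35 members, 14 share exon bases with another gene in GENCODE release 29, 10 of them with a gene on the opposite strand, such as JAM3 with NCAPD3, JAM2 with ATP5PF and CLDN7 with ELP5, while CLDN12 shares bases with CDK14 and GTPBP10 on its own strand. The sources used here do not say that strand was used in counting, so reads of such partners cannot be told apart.

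Among the 19 tested members the normalized counts of the groups did not overlap in 6, or 31.6%, of which 3 were higher with CBX7 (OCLN, MARVELD2 and ESAM) and 3 lower (CLDN12, CLDN23 and JAM2). Over all genes tested the share was 30.2%, with 15.4% higher and 14.8% lower. The members' share is therefore near the background.

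**Figure D2:**
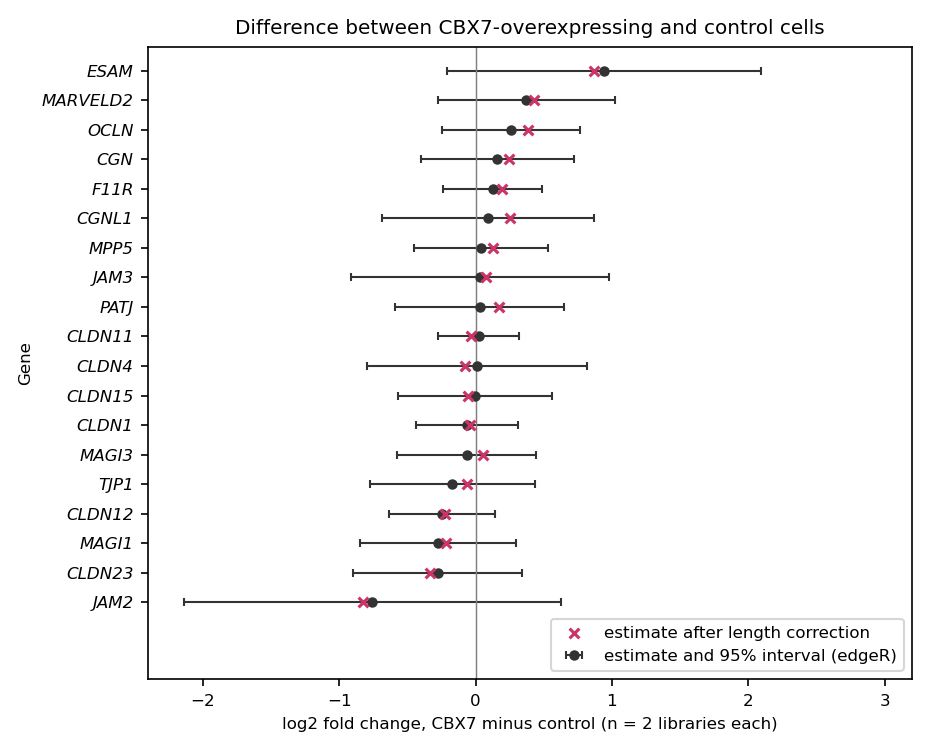
Log2 fold change, CBX7 minus control, of the 19 tested tight junction genes with edgeR's 95% interval (bars) and the estimate with the trend on gene length of each library removed (crosses). Every interval includes 0, and those of JAM2 and ESAM, the genes with fewest counts, are the widest.

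The plaque and scaffold genes are long, and their values moved with the library. CBX7 replicate 1 had lower counts for long genes in general. Over the 11077 genes that averaged 100 counts or more, its log2 ratio to control replicate 1 had a Spearman correlation with gene length of -0.62. The replicate 2 pair had 0.04 (a description across genes, which are not independent). Control replicate 1 also ran lower for long genes, with -0.49 for its ratio to control replicate 2. The ratio of CBX7 replicate 1 to CBX7 replicate 2 had -0.70. TJP1, 6747 bases long, had 79.9 and 95.6 CPM in control cells and 60.7 and 95.4 CPM in CBX7 cells, so that its low CBX7 value came from replicate 1 alone. PATJ, 8730 bases long, had 20.2 and 23.0 CPM in control cells and 16.9 and 27.2 CPM in CBX7 cells, the lowest and the highest value being those of the CBX7 group. MPP5 had 85.2 and 90.8 CPM in control cells and 75.0 and 106.3 CPM in CBX7 cells, and MAGI3 had 17.9 and 20.4 CPM against 15.2 and 21.4 CPM, the same pattern. MAGI1 had 10.2 and 13.1 CPM in control cells and 8.12 and 11.2 CPM in CBX7 cells, with a log2 fold change of -0.27 (standard error 0.23). The cingulins did not share it. CGN had 4.61 and 3.67 CPM in control cells and 4.35 and 4.92 CPM in CBX7 cells, and CGNL1 had 1.13 and 1.33 CPM against 1.37 and 1.25 CPM, so that neither was lowest in CBX7 replicate 1. Of 10 tested members longer than 4000 bases, CBX7 replicate 1 was the lowest library in 5 (50%), against 70.7% of the 4745 tested genes of that length. Of the 9 shorter members it was the lowest in 3, against 23.6% of tested genes.

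Within the replicate 1 pair 7 of the 19 members were higher with CBX7 (49.9% of all genes tested), and within the replicate 2 pair 11 were (48.6%). After correction of each library for its trend on gene length, the median over the 19 members was 0.058 on the log2 scale, and still 0 passed an unadjusted p of 0.05 (6.91% of all genes tested did). OCLN then stood at 0.38 (standard error 0.21), MARVELD2 at 0.43 (standard error 0.24), TJP1 at -0.06 (standard error 0.12) and CLDN12 at -0.22 (standard error 0.11). The values of CLDN11, CLDN4 and MAGI3 changed sign, to -0.03, -0.08 and 0.06. What made the trend on length in CBX7 replicate 1 and in control replicate 1 was not tested.

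**Figure D3:**
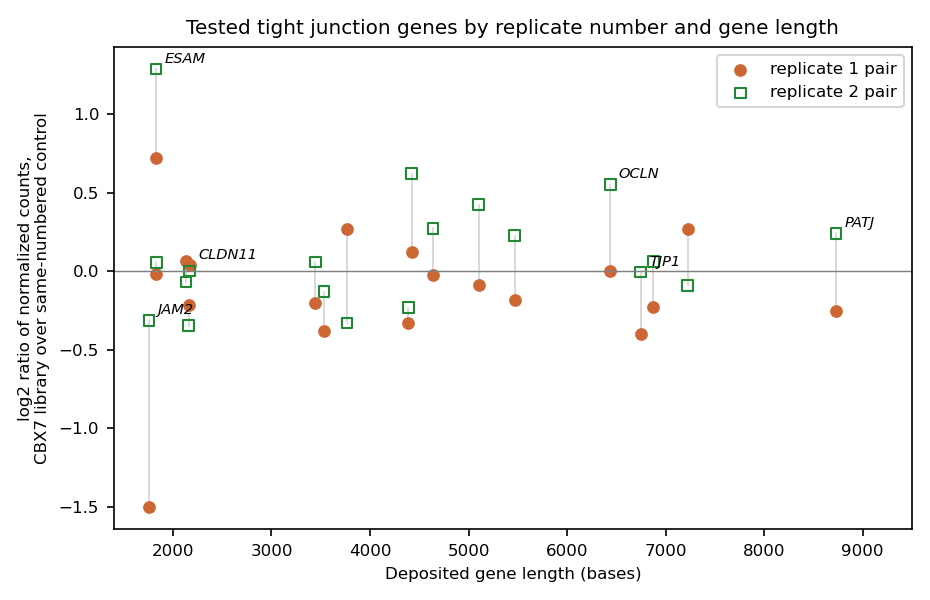
Log2 ratio of normalized counts of each CBX7 library over the control library of the same number, for the 19 tested tight junction genes, against the deposited gene length in bases. Grey lines join both values of a gene, and the filled points of replicate 1 lie below the open points of replicate 2 for most genes longer than 4000 bases, TJP1, OCLN and PATJ among them.

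The deposited TPM and the counts disagreed most for PATJ, MAGI3 and CGNL1. MAGI3 had 426.37 and 428.51 estimated counts in control cells but 6.37 and 10.49 TPM, and in the CBX7 libraries 368.46 and 477.41 counts but 10.68 and 10.87 TPM. By TPM both CBX7 libraries lay above both controls, whereas by normalized counts the groups overlapped. PATJ had its highest count in CBX7 replicate 2, at 608.03, and there a TPM of 4.74, below the 6.32 TPM given for the 408 counts of CBX7 replicate 1. The ratio of TPM to RPKM, divided in each library by its median over all genes tested so that differences common to all genes drop out, varied 2.70-fold over the libraries in PATJ, 2.32-fold in MAGI3 and 2.20-fold in CGNL1, against a median of 1.09-fold over 14812 tested genes. It varied 1.67-fold in JAM2 and 1.49-fold in ESAM, but 1.13-fold in MPP5, 1.12-fold in TJP1, 1.01-fold in CLDN1 and 1.00-fold in CLDN11. The groups were therefore compared on the counts.

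Message for partner junctions was abundant although CDH1 was not. CDH1 had 2 and 0 counts in control cells and 1 and 0 in CBX7 cells, and NECTIN4 and CDH3 had at most 4 counts in a library, while CDH2, the gene of N-cadherin, had a mean of 48.4 TPM. The cadherin partners CTNNA1 and CTNNB1, which encode alpha- and beta-catenin, had means of 170.2 and 163.8 TPM. Of 10 tested adherens junction genes, 1 was past an unadjusted p of 0.05 (4.74% of all genes tested were) and 0 past an adjusted p of 0.05 (0.0202%), with 3 positive and 7 negative log2 fold changes and a median of -0.11. That gene, JUP (plakoglobin, a catenin of both adherens junctions and desmosomes), had 34.4 and 29.5 CPM in control cells and 45.7 and 43.4 CPM in CBX7 cells, a log2 fold change of 0.48 (standard error 0.14, adjusted p 0.797, edgeR). Of 9 tested desmosome genes 0 were past an unadjusted p of 0.05, against the same 4.74%. After the length correction 1 was (6.91% of all genes tested were). Log2 fold changes were positive in 3 and negative in 6 (50.3% of all genes tested were positive), with a median of -0.21. The median was -0.082 after the length correction. It was -0.49 in the replicate 1 pair, which carried the trend on length, and -0.012 in the replicate 2 pair. Of the desmosome genes, DSG2 (desmoglein 2), PKP3 and PKP4 (plakophilins) were the highest, with means of 49.0, 38.6 and 31.2 TPM.

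Of 23 tested plaque and polarity partners of the members, 1 (4.35%) was past an unadjusted p of 0.05, a share near the 4.74% of all genes tested, and 9 had a positive and 14 a negative log2 fold change (50.3% of all genes tested were positive), with a median of -0.044 that was 0.060 after the length correction. This gene, LSR, encodes angulin-1, which recruits tricellulin to the corners between cells. It had 4.57 and 3.95 CPM in control cells and 11.9 and 9.80 CPM in CBX7 cells, so that each CBX7 library had more than each control. The log2 fold change was 1.35 (standard error 0.20, 95% interval 0.86 to 1.84), with an unadjusted p of 0.000633 and an adjusted p of 0.260 in edgeR's quasi-likelihood test. DESeq2's Wald test, which called 0.451% of all genes tested, gave it an adjusted p of 0.00687. Its log2 fold change was 1.29 after the length correction and 1.38 and 1.31 within the replicate 1 and replicate 2 pairs. ILDR1, the gene of angulin-2, had 0 counts and ILDR2, that of angulin-3, at most 3. LSR lies on the plus strand of chromosome 19 from 35248330 to 35267964 and overlaps no exon of another gene in GENCODE release 29.

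Of 22 genes of the epithelial state outside the junction, a list chosen with earlier results known, 14 were tested. Of these, 13 had a positive log2 fold change (50.3% of all genes tested did), with a median of 0.42 that was 0.31 after the length correction, 0.47 within the replicate 1 pair and 0.20 within the replicate 2 pair. An unadjusted p under 0.05 was reached by 6, 5 of them higher (3.42% of all genes tested were past it in that direction) and 1 lower (1.32%), and 0 passed the adjusted threshold in the edgeR test used here. KRT19, a keratin of simple epithelia, had 6.54 and 5.72 CPM in control cells and 18.5 and 12.8 CPM in CBX7 cells, a log2 fold change of 1.35 (standard error 0.23, adjusted p 0.352, edgeR). SPINT1, an inhibitor of epithelial surface proteases, had 9.18 and 6.86 CPM in control cells and 18.8 and 16.3 CPM in CBX7 cells, a log2 fold change of 1.13 (standard error 0.20, adjusted p 0.361, edgeR). Both had no overlap between groups, and DESeq2 gave adjusted p-values of 0.00361 and 0.0163. The other higher genes were SPINT2, ESRP2, an epithelial splicing regulator, and GRHL1, a Grainyhead transcription factor, with log2 fold changes of 0.55, 0.86 and 0.73. ELF3, an epithelial ETS factor, was the lower one, at -0.40. EPCAM, whose protein partners claudin-7, had a log2 fold change of 0.59 (standard error 0.47) with overlapping groups, and GRHL2, GRHL3 and OVOL1 had 0 counts.

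Of 9 tested repressors of junction genes and mesenchymal genes, 2 had a positive and 7 a negative log2 fold change (50.3% of all genes tested were positive), with a median of -0.19. An unadjusted p under 0.05 was reached by 2 (22.2%, against 4.74% of all genes tested), SNAI1 and FN1, in opposite directions. SNAI2 and ZEB1 were the more abundant ones, with means of 16.5 and 8.87 TPM and log2 fold changes of -0.10 (standard error 0.14) and -0.30 (standard error 0.25). SNAI1 had 11 and 3 counts in control cells and 24 and 22 in CBX7 cells, a log2 fold change of 1.66 (standard error 0.56, adjusted p 0.916, edgeR) that was 2.74 without control replicate 1 and 1.09 without control replicate 2. FN1, the mesenchymal matrix gene fibronectin, had 1770 and 1940 CPM in control cells and 689 and 1132 CPM in CBX7 cells, a log2 fold change of -1.03 (standard error 0.25, adjusted p 0.597 in edgeR and 0.00687 with DESeq2). VIM (vimentin), at a mean of 2479 TPM, had a log2 fold change of -0.19 (standard error 0.15).

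**Figure D4:**
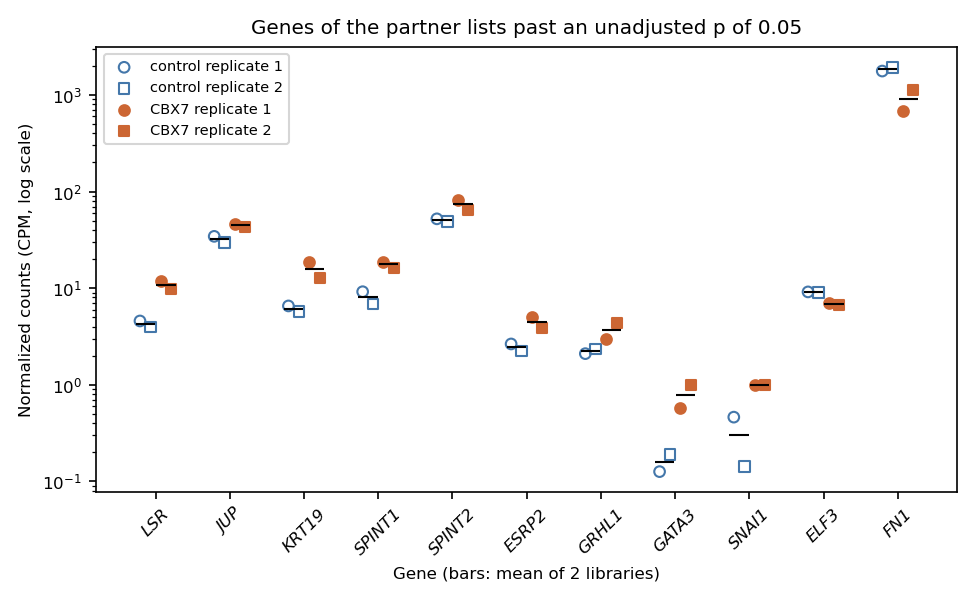
Normalized counts (CPM, logarithmic axis) in each library of 11 genes from the partner, epithelial, repressor and urothelial lists that passed an unadjusted p of 0.05 (edgeR), with a bar at the mean of each group of 2 libraries. The genes were chosen by that p, which 4.74% of all genes tested passed, so their separation is a description, and of the 11 only ELF3 and FN1 are lower with CBX7.

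The identity of the cells was checked on marker lists. Of 12 urothelial markers 8 had at most 3 counts in every library, namely KRT5, KRT13, KRT20, TP63 and the uroplakins UPK1A, UPK1B, UPK2 and UPK3A, the plaque proteins of the urothelial surface. PPARG and FOXA1 were present at means of 23.9 and 7.79 TPM. GATA3, a luminal urothelial factor, had 3 and 4 counts in control cells and 14 and 22 in CBX7 cells, a log2 fold change of 2.28 (standard error 0.56, adjusted p 0.602, edgeR). The summed urothelial level was 33.7 and 31.9 TPM in control cells and 30.8 and 34.3 TPM in CBX7 cells. Of the glial markers, listed because CLDN11 is known from myelin, SOX10 had at most 3 counts, and MBP, whose gene is also transcribed outside glia, had a mean of 8.29 TPM and a log2 fold change of 0.19. Of the other markers, CD68, 1 of 2 tested leukocyte genes, was at -0.60 and COL1A1, 1 of 2 tested fibroblast genes, at 0.71 on the log2 scale, both past an unadjusted p of 0.05 (4.74% of all genes tested were) and neither past the adjusted one. The summed level of the fibroblast markers was 2.04 and 2.12 TPM in control cells and 1.53 and 5.84 TPM in CBX7 cells, and that of the leukocyte markers 12.4 and 11.1 TPM against 7.6 and 8.41 TPM, while the leukocyte genes PTPRC and CD3E had at most 1 count. GAPDH had 5420 and 4985 CPM in control cells and 6127 and 4434 CPM in CBX7 cells. The summed counts of the libraries lay between 20800910 and 25135488. CBX7 itself had 10.9 and 9.67 CPM in control cells and 1774 and 1595 CPM in CBX7 cells, which matches the labels of the 4 libraries.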

How the data were processed

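Total RNA of 4 libraries was sequenced on an Illumina HiSeq. The authors deposited, for each of 60623 genes, an estimated count (88.2% to 88.9% of the values are whole numbers) and a TPM value per library, with a gene length. The submitters' processing notes name cutadapt 1.9.1, HISAT2 2.0.1, HTSeq 0.6.1, DESeq2 and hg19, without saying which step made which column, and 96.5% of the gene identifiers are found in GENCODE release 29 (GRCh38), from which coordinates were taken. Columns with the authors' own fold changes and p-values were not used. Estimated counts were rounded and tested with edgeR 4.0.16 (filterByExpr, TMM, quasi-likelihood) in R 4.3.3, which left 14862 genes, and p-values were adjusted by the Benjamini-Hochberg method over all of them. CPM are counts scaled to the TMM-normalized library size. DESeq2 1.42.0, other filters and normalizations, a replicate block, a correction of each library for its lowess trend on gene length (span 0.3), and leaving out each library were tried as alternatives, and the overlap of the groups by TPM was added after seeing the data. Scripts were tested on simulated data. The members and gene lists were chosen with earlier results of these data known. All members were accounted for, tested members are given by library, and of the other lists genes past an unadjusted p of 0.05, or the 3 with the highest TPM, are named, with others named as background after their values were seen. Of the glial list only SOX10 and MBP are named. Some genes of these lists are not reported here. Replicates of a group differed by more than counting noise (chi-square per degree of freedom 6.06 for control and 54.7 for CBX7).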

Additional observations from a re-analysis of the deposited data

How the results depend on the processing

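The 19 tested members (17 with at least 10 counts in every library, where ESAM and JAM2 drop out) had no adjusted p under 0.05 in any fit of all 4 libraries, under DESeq2 size factors, either low-count filter, DESeq2's Wald test, the newer quasi-likelihood form, the replicate block and the length correction, while the number of genes past it over the whole table rose from 3 to 265 with no filter, 67 with DESeq2's Wald test, 361 with the replicate block and 549 with the replicate block and length correction together. The last fit put 2 members, CLDN12 and OCLN, past an unadjusted p of 0.05, as it did 13.5% of all genes tested. Same-numbered libraries deviated together (correlation 0.31 over all genes tested and 0.61 over the 11077 that averaged 100 counts or more), but with 2 pairs and no label that ties them, the pairing is not shown. LSR had an adjusted p of 7.94e-08 with the replicate block and 4.08e-06 with no filter, against 0.260 without either, and between 7.99e-13 and 0.281 when a library was left out, at log2 fold changes from 1.20 to 1.48. The replicate block also called KRT19 (2.21e-09), SPINT1 (2.03e-07), SPINT2 (0.0408), FN1 (9.69e-07) and GATA3 (0.0369), no filter called KRT19 (4.16e-07), SPINT1 (3.89e-05) and FN1 (1.18e-08), and block with length correction also called JUP (0.00295), ESRP2 (0.0466) and CD68 (0.00523), each value being an adjusted p in edgeR. Signs changed for members close to 0: CLDN15 to 0.000954 with no filter, JAM3 to -0.0032 and PATJ to -0.0025 with the replicate block, and CLDN4, CLDN11 and MAGI3 to -0.0758, -0.0303 and 0.0575 with the length correction and to -0.0679, -0.0312 and 0.0567 with block and length correction together. With each library left out in turn, the lone library being assumed to vary like the other group, 45 to 5491 genes and 0 to 4 members passed the adjusted threshold and 0 to 7 members the unadjusted one, the 7 being without CBX7 replicate 2, where 43% of all genes passed it. The 4 were TJP1, CLDN12, MAGI1 and PATJ without CBX7 replicate 2. The members with a positive value numbered 8 to 12, and their median lay between -0.0286 and 0.0839. Across these fits the values on the log2 scale went from -0.0286 to 0.209 for CGNL1, -0.222 to 0.0839 for CLDN1, -0.0540 to 0.0460 for CLDN15, -0.267 to 0.330 for CLDN4, -0.493 to 0.408 for JAM3, -0.329 to 0.164 for MAGI3, -0.233 to 0.278 for MPP5, -0.353 to 0.341 for PATJ and -0.533 to 0.125 for TJP1. The sign was kept, with values from 0.0707 to 0.484 for OCLN, -0.410 to -0.0970 for CLDN12, -0.520 to -0.0509 for MAGI1, 0.00612 to 0.334 for CGN and 0.222 to 0.510 for MARVELD2. The cause of these changes was not tested. By the deposited TPM, an alternative chosen after seeing the data, the groups did not overlap in 4 tested members (ESAM and MAGI3 higher with CBX7, CLDN23 and JAM2 lower) in place of 6, beside 29.6% of all genes tested. The number of members by level was 17 at a mean of 0.5 TPM and 11 at 2 TPM, beside 14 at 1 TPM. Computed from counts and the deposited length, the shares of CLDN11 and CLDN1 in the summed member level were 58.0% and 25.8%, beside 57.1% and 24.3% by TPM, while that of PATJ was 0.620% beside 1.02% and that of MAGI3 0.676% beside 1.67%. No direction was read for the members with under 10 counts in every library.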
